A study of Homo sapiens with 12 samples.

Results

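The genes described here encode the machinery that brings new secretory proteins into the endoplasmic reticulum (ER), carries them to the Golgi apparatus and returns escaped ER proteins. They were chosen by name, as genes of known role on this route, when earlier results of these data were known. They comprise 48 of the 63677 genes in the count table. Each of the 48 names matched 1 Ensembl gene. All 48 passed the filter on low counts, which left 18674 genes in the tests.

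Secretory proteins are recognised while they are being made by the signal recognition particle (SRP), which docks on its receptor and hands the ribosome to the SEC61 channel, the translocon. The translocon-associated protein (TRAP) complex helps the chain enter, and signal peptidase removes the signal sequence. Folded cargo leaves the ER in vesicles coated with COPII, guided by cargo receptors, while vesicles coated with COPI and the KDEL receptors bring ER proteins back from the Golgi. B lymphocytes enlarge this machinery when they become antibody-secreting plasma cells, and ER stress raises many of its genes through transcription factors such as XBP1 and ATF6.

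RNA-seq was performed on 3 lines of mantle cell lymphoma (MCL), JEKO1, JVM2 and MAVER1, with 1 library of each line for each of 4 treatments: untreated control, ironomycin, ibrutinib, or both drugs, all for 48 h. Ironomycin, a salinomycin derivative that traps iron in lysosomes, was given at 50 nM to JEKO1 and at 250 nM to JVM2 and MAVER1. Ibrutinib, an inhibitor of the BTK kinase, was given at 0.5 μM to JEKO1, 1.5 μM to JVM2 and 6.25 μM to MAVER1, with the same doses in the combination. The line is the replicate (n = 3). The ibrutinib dose differed in every line, the ironomycin dose set JEKO1 apart, and serum and cell density were lower for JVM2 than for the other lines, so that the line cannot be told apart from its dose and culture. In RNA from whole cultures, a change in every cell, a change in the share of some cells and a change in RNA per cell cannot be told apart either.

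Libraries held 35448523 to 38630809 counted reads. Levels are given as TMM-scaled CPM (counts scaled to a common library size), always in the order control, ironomycin, ibrutinib, both. Fold changes are on the log2 scale with their standard error (SE) from edgeR's quasi-likelihood fit, and a gene was called when its p-value, adjusted after Benjamini-Hochberg, was under 0.05 over all 18674 genes. The 5 B cell markers tested (MS4A1, CD79A, CD79B, PAX5 and CD22) were at 1 CPM or more in every library. Of the 3 MCL markers, in the 4 JVM2 libraries SOX11 had 0 reads, CD5 at most 0.0549 CPM and CCND1 216 to 322 CPM, and all 3 were above 1 CPM in every other library. Summed T cell, myeloid and erythroid markers never exceeded 8.73 CPM. The share of reads from mitochondrial genes ran from 0.883% to 2.17% and was lower with ironomycin than without it in each line, as in JEKO1 with 2.05% in the control and 1.27% with ironomycin.

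The secretory genes took a larger share of the reads wherever ironomycin was present. In JEKO1 the 48 genes together made up 0.526% of all reads in the control, 0.753% with ironomycin, 0.505% under ibrutinib and 0.803% with both drugs. The corresponding shares were 0.737%, 0.893%, 0.696% and 0.845% in JVM2, and 0.686%, 0.951%, 0.708% and 1.07% in MAVER1. Within each line both libraries with ironomycin lay above both without it, by the smallest margin in JVM2. Gene by gene, 31 of the 48 were higher with ironomycin in all 6 pairs of libraries that differ only in ironomycin, where 14.8% of all genes tested were. Only SRP14 was lower in all 6 pairs, where 15.5% of all genes were.

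**Figure D1:**
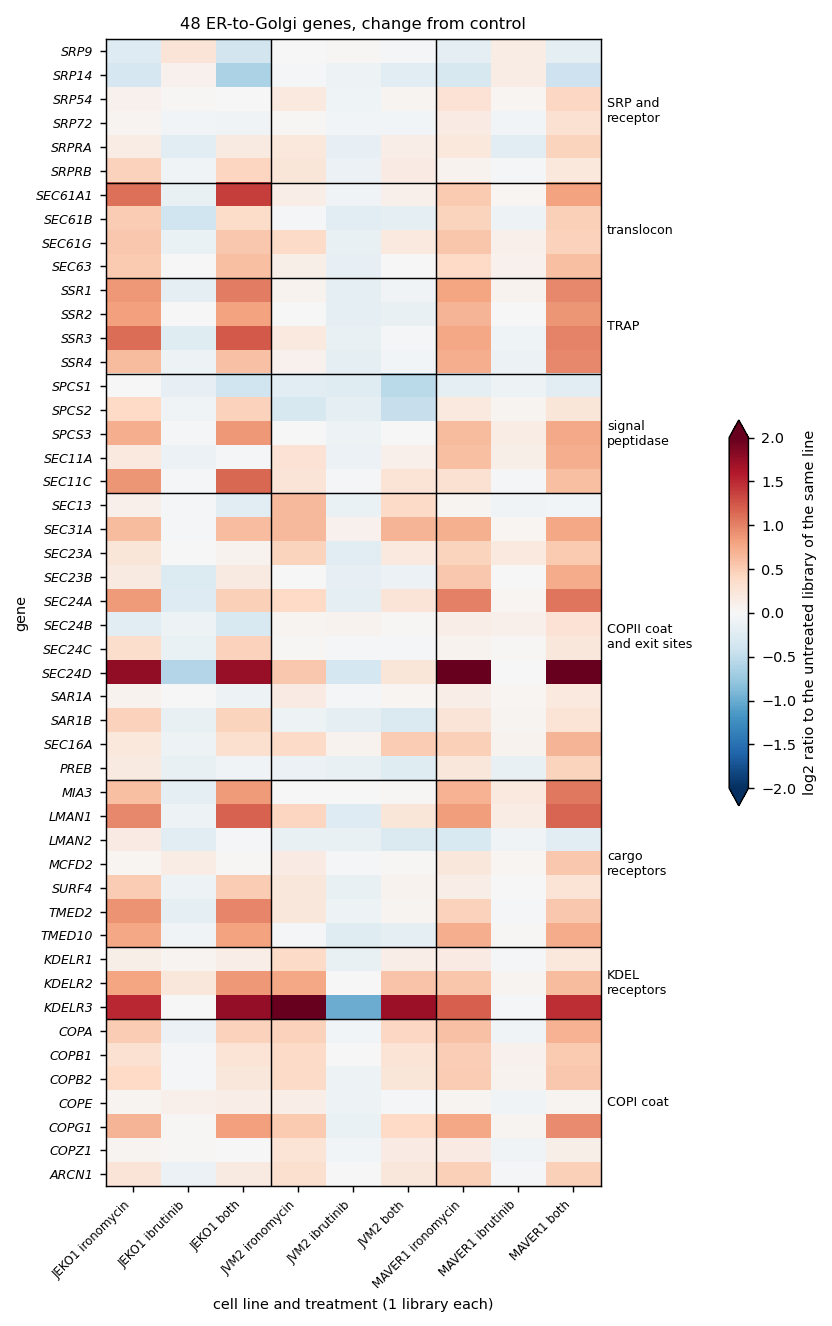
Heat map of the 48 genes (rows, grouped by role) in the 9 treated libraries (columns), coloured by the log2 ratio of CPM to the untreated library of the same line (red higher, blue lower; colours saturate at 2). The ironomycin and combination columns are mostly red in JEKO1 and MAVER1, while in JVM2 the strongest colours are in SEC13, SEC31A, KDELR2 and KDELR3.

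Over the 3 lines, ironomycin raised 7 of the 48 genes against control: SEC31A, KDELR2, COPG1, COPA, KDELR3, SEC61G and COPB2. The background rates of calls over all genes were 0.412% higher and 0.171% lower, and no member was called lower. Only KDELR3 changed by at least 1 on the log2 scale, as did 0.129% of all genes. The median log2 fold change was 0.35 for the members and 0.03 for all genes tested. An unadjusted p-value under 0.05 was reached by 30 members and by 22.5% of all genes. The count rested on the lines included: it was 21 without JVM2, and 0 without JEKO1 or without MAVER1. Calls over all genes moved likewise, to 1636 of 17985 without JVM2, 3 of 17875 without JEKO1 and 1 of 18851 without MAVER1.

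With both drugs against control, 25 members were called, 23 higher and 2 lower, against background rates of 14.2% higher and 14% lower over all genes. SEC24D and KDELR3 were the 2 members that rose by at least 1 on the log2 scale, as did 4.81% of all genes. Against ibrutinib alone, the combination raised 29 members and lowered 2, where 11.8% of all genes were higher and 11.5% lower. The same 2 genes passed a log2 fold change of 1, against 3.91% of all genes. These comparisons share libraries with each other and are not independent. Without JVM2 the counts were 27 against control and 29 against ibrutinib, where 6103 and 5192 of all 17985 genes were called. Without JEKO1 they fell to 1 (SEC31A) and 0, where 37 and 1 of all 17875 genes were called. Without MAVER1 they were 0 and 0, where 22 and 6 of all 18851 genes were called.

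Fitting the ironomycin effect within each line, over the pair without and the pair with ibrutinib, gave unlike counts. In JEKO1, 32 members rose and 2 fell, where 17% of all genes rose and 16.2% fell. In MAVER1, 33 rose and 2 fell, with backgrounds of 16.6% and 16%. In JVM2, 10 rose and 0 fell, with backgrounds of 1.92% and 1.35%, and 25 members had an unadjusted p under 0.05, as did 19.8% of all genes. The JVM2 count was 4 when MAVER1 was left out of the fit, where 114 of all 18851 genes were called. The members' median log2 fold change was 0.47 in both JEKO1 and MAVER1, and 0.17 in JVM2. Rises were called in all 3 lines for 9 members (0.894% of all genes), and in JEKO1 and MAVER1 but not in JVM2 for 18 (8.27% of all genes). A test of the difference itself called 16 of the 48 members and 9.38% of all genes. The lowest effect was in JVM2 for 15 of the 16 and for 28 of all 48 members, and the share over all genes was not computed. Without JVM2, 3 members still differed between JEKO1 and MAVER1 (SEC61A1, SEC11C and TMED2), as did 643 of all 17985 genes. The count was 15 without JEKO1 (1897 of all 17875 genes) and 11 without MAVER1 (260 of all 18851 genes).

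**Figure D2:**
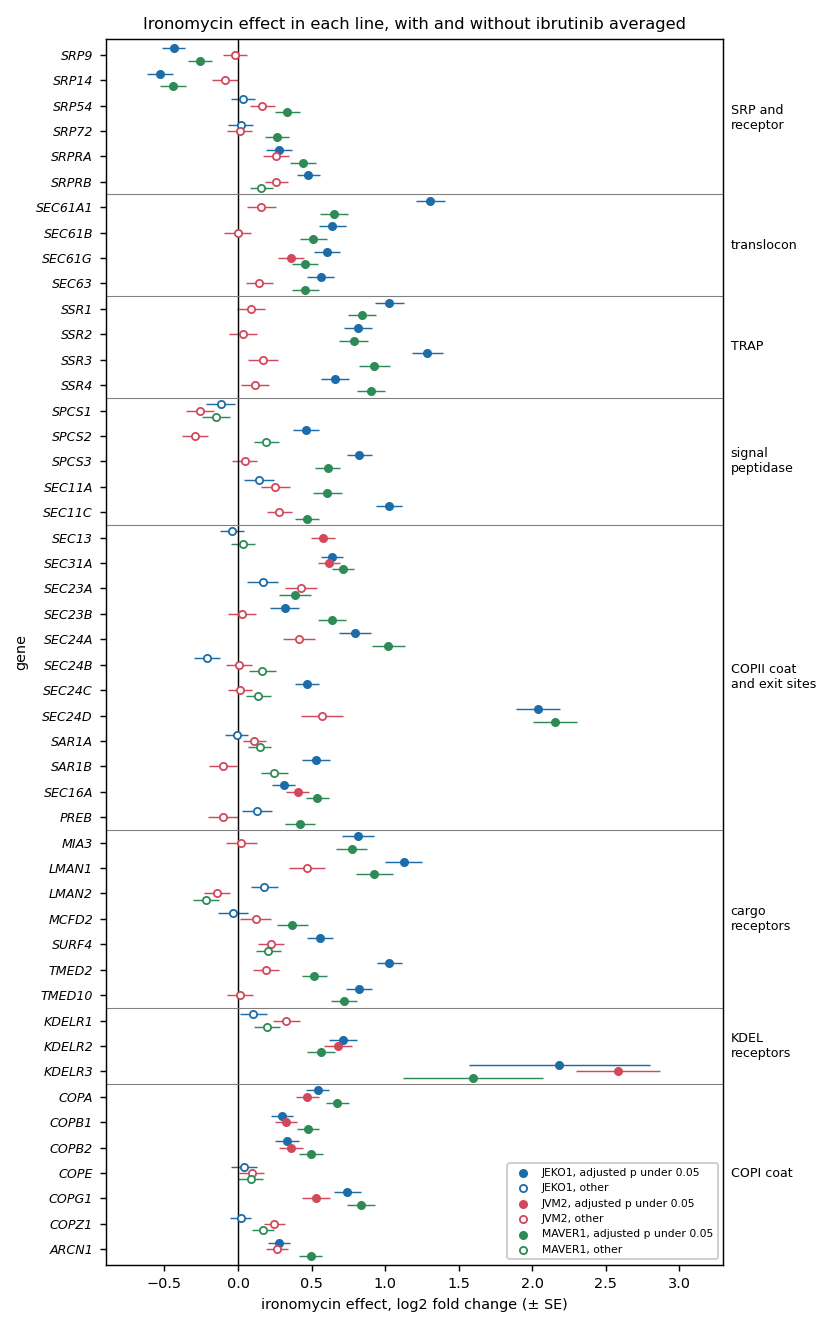
Ironomycin effect (log2 fold change ± SE) on each of the 48 genes in JEKO1 (blue), JVM2 (red) and MAVER1 (green), averaged over libraries without and with ibrutinib; filled points have an adjusted p under 0.05. The 3 lines lie close together for the COPI coat, SEC31A and KDELR2, and JVM2 lies near 0, apart from the other lines, for the TRAP complex.

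The summed level of the 6 plasma cell markers moved with this split. Their sum (SDC1, PRDM1, IRF4, MZB1, TNFRSF17 and JCHAIN, all at 1 CPM or more in every library) was 509.6, 908, 427 and 867 CPM in JEKO1, 906, 1441, 894 and 1452 CPM in MAVER1, and 1922, 1789, 2001 and 1853 CPM in JVM2. It was thus higher with ironomycin in JEKO1 and MAVER1 and lower with it in JVM2, where its level without the drug was highest. Single markers differed from the sum: in JVM2 IRF4 stood at 1232, 1291, 1423 and 1424 CPM, and in JEKO1 SDC1 at 1.38, 1.17, 1.56 and 1.06 CPM. JCHAIN stood at 103.1, 142.1, 102.7 and 102.6 CPM in JEKO1 and at 270.7, 317.2, 236.6 and 219 CPM in MAVER1. In these lines it was thus not higher with ironomycin where ibrutinib was present. In JVM2 JCHAIN fell with ironomycin as the sum did, at 193, 86.2, 170.4 and 64.3 CPM. The 5 B cell markers summed to 1837, 1370.9, 1977 and 1336 CPM in JEKO1, to 1579.5, 1099.6, 1566 and 1189.7 CPM in MAVER1, and to 1650.3, 1658, 1726 and 1725 CPM in JVM2. The part of these marker genes in the differences between lines was not tested. Untreated JVM2 had the highest level of 26 of the 48 secretory genes, while JEKO1 and MAVER1 had 11 each. The share of all genes that were highest in JVM2 was not computed, so these counts have no background.

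Among the parts of SRP, the SRP9 and SRP14 proteins form the heterodimer that pauses translation, SRP54 binds the signal sequence and SRP72 is a scaffold of the particle. Per kilobase of exon (union of annotated exons), SRP14 and SRP9 were among the 3 most abundant members in every untreated line, with SRP14 at 144.5, 115 and 114 CPM per kb in JEKO1, JVM2 and MAVER1. SRP14 stood at 289.8, 229, 309 and 187 CPM in JEKO1, at 231, 224, 216 and 197 in JVM2 and at 228, 182, 253 and 171 in MAVER1. In JEKO1 and MAVER1 both libraries with ironomycin were below both without it, while in JVM2 only the combination library stood clearly below the rest. SRP14 fell with both drugs against control (-0.42 ± 0.11 SE, adjusted p = 0.021) and against ibrutinib (-0.48 ± 0.11, adjusted p = 0.0159). SRP9 stood at 239, 199.9, 284 and 185 CPM in JEKO1, at 202, 202, 206 and 199 in JVM2 and at 203, 178, 224 and 178 in MAVER1. It fell against ibrutinib (-0.34 ± 0.10, adjusted p = 0.0392), and within JEKO1 (-0.44 ± 0.08, adjusted p = 0.00211) and MAVER1 (-0.26 ± 0.08, adjusted p = 0.0288). Scaling by library totals alone moved SRP14 against control to -0.30 (adjusted p = 0.0539) and SRP9 against ibrutinib to -0.24 (adjusted p = 0.0872), so both of these calls depend on the scaling. SRP14 against ibrutinib remained called, at -0.38 (adjusted p = 0.0288).

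Within MAVER1, SRP54 and SRP72 passed the test, at 0.34 ± 0.08 (adjusted p = 0.0106) and 0.27 ± 0.08 (adjusted p = 0.029). SRPRA, the receptor subunit that binds SRP, stood at 70.5, 78.6, 60.7 and 79.9 CPM in JEKO1, at 373, 434, 332 and 409 in JVM2 and at 129, 149, 110.1 and 175 in MAVER1. JVM2 held the highest level of it under every treatment. Within lines it rose in JEKO1 (0.28 ± 0.09, adjusted p = 0.0336) and MAVER1 (0.44 ± 0.09, adjusted p = 0.00299). It also rose with both drugs against control (0.26 ± 0.09, adjusted p = 0.0469) and against ibrutinib (0.46 ± 0.09, adjusted p = 0.00739). SRPRB, the membrane anchor of the receptor, rose against ibrutinib (0.34 ± 0.09, adjusted p = 0.0235) and in JEKO1 (0.48 ± 0.08, adjusted p = 0.0012). For the 6 genes of SRP and its receptor the adjusted p of the difference between lines ran from 0.0755 to 0.524.

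All 4 translocon genes were called higher in JEKO1 and in MAVER1, and in JVM2 SEC61G was. SEC61A1 encodes the channel itself and stood at 159, 339.7, 144 and 411 CPM in JEKO1, at 568, 624, 539 and 609.5 in JVM2 and at 475, 686, 487 and 833 in MAVER1. The JEKO1 levels with ironomycin were far above those without it, MAVER1 levels were moderately above, and the JVM2 levels lay within a narrow band. The effects were 1.31 ± 0.10 (JEKO1), 0.16 ± 0.10 (JVM2) and 0.65 ± 0.10 (MAVER1), and they differed between lines (adjusted p = 0.00232). With the combination SEC61A1 rose against control (0.77 ± 0.22, adjusted p = 0.0267). SEC61B, a small subunit of the channel, was called in JEKO1 (0.64 ± 0.09, adjusted p = 0.000529) and MAVER1 (0.51 ± 0.09, adjusted p = 0.00153) with -0.00 ± 0.09 in JVM2, and the lines differed (adjusted p = 0.021).

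SEC61G, the other small subunit, rose in all 3 lines. It stood at 35.1, 51.2, 32.1 and 50.9 CPM in JEKO1, at 58.8, 76.5, 53.2 and 67.4 in JVM2 and at 53.1, 78.1, 57.0 and 73.2 in MAVER1. Every library with ironomycin exceeded both libraries without it in its own line. It was the translocon gene called for ironomycin against control (0.49 ± 0.09, adjusted p = 0.047), and the test did not find a difference between lines (adjusted p = 0.383). SEC63, which recruits the chaperone BiP to the channel, rose with both drugs against control (0.40 ± 0.11, adjusted p = 0.0238).

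All 4 TRAP genes were called in JEKO1 and in MAVER1, all 4 differed between lines, and in JVM2 their adjusted p ran from 0.396 to 0.899. SSR3, the gamma subunit, stood at 70.8, 153, 59.9 and 165 CPM in JEKO1, at 262, 302, 237 and 259 in JVM2 and at 232, 395, 218 and 462 in MAVER1. In JVM2 the ironomycin library was the highest and the rest were close to each other, whereas the MAVER1 and JEKO1 libraries fell into separate low and high pairs. Its effects were 1.29 ± 0.11 (JEKO1), 0.17 ± 0.10 (JVM2) and 0.93 ± 0.10 (MAVER1) (difference between lines, adjusted p = 0.00334). SSR1, the alpha subunit, stood at 63.8, 116, 56.6 and 129 CPM in JEKO1, at 142, 148, 125 and 135 in JVM2 and at 127, 221, 134 and 248 in MAVER1, with effects of 1.03 ± 0.10 (JEKO1), 0.09 ± 0.10 (JVM2) and 0.84 ± 0.10 (MAVER1) and an adjusted p of 0.00507 for the difference. SSR2, the beta subunit, stood at 115, 204, 114 and 200.5 CPM in JEKO1, at 198, 199, 172 and 179 in JVM2 and at 178, 286, 179 and 329.9 in MAVER1. In JVM2 the control and ironomycin libraries had nearly equal SSR2 levels, and the lines differed (adjusted p = 0.00887). SSR4, the delta subunit, had effects of 0.66 ± 0.10 (JEKO1), 0.12 ± 0.09 (JVM2) and 0.90 ± 0.09 (MAVER1) (adjusted p = 0.0123 for the difference).

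Signal peptidase genes did not move as a block. The catalytic subunits are SEC11A and SEC11C, and SPCS1, SPCS2 and SPCS3 are accessory subunits. SEC11C stood at 23.0, 42.5, 22.6 and 51.0 CPM in JEKO1, at 79.2, 94.3, 77.3 and 95.5 in JVM2 and at 73.1, 90.6, 72.1 and 111 in MAVER1. Every ironomycin library exceeded its ironomycin-free partner, and the ratio was largest in JEKO1. Its effects were 1.03 ± 0.09 (JEKO1), 0.28 ± 0.08 (JVM2) and 0.47 ± 0.08 (MAVER1), which differed between lines (adjusted p = 0.00924), and it rose with both drugs against control (0.67 ± 0.16, adjusted p = 0.0115). SEC11A stood at 40.0, 45.8, 36.9 and 39.1 CPM in JEKO1, at 95.7, 117, 88.2 and 103 in JVM2 and at 97.8, 148, 106 and 161 in MAVER1, and was called in MAVER1 (0.61 ± 0.10, adjusted p = 0.000934), with an adjusted p of 0.102 for the difference between lines. Per kilobase, SEC11C made up 42.3% of the catalytic pair in untreated JEKO1, 54.1% with ironomycin and 62.4% with both drugs, while in JVM2 and MAVER1 its share stayed between 43.8% and 54.2%.

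SPCS3 stood at 158, 262, 153 and 288 CPM in JEKO1, at 129, 128, 120.4 and 129 in JVM2 and at 129, 199, 143 and 216 in MAVER1. JVM2 levels stayed between 120.4 and 129 CPM, and the lines differed (adjusted p = 0.00752). SPCS2 stood at 97.0, 128, 92.2 and 134 CPM in JEKO1, at 145, 116, 127 and 105 in JVM2 and at 432, 497, 447 and 509 in MAVER1, and its level in MAVER1 was the highest of any line. SPCS2 rose in JEKO1 (0.47 ± 0.09, adjusted p = 0.00247), its value was -0.29 ± 0.09 in JVM2 (adjusted p = 0.0999), and the lines differed (adjusted p = 0.0113). SPCS1 went down: it stood at 47.3, 47.5, 42.4 and 35.8 CPM in JEKO1, at 128, 109, 107 and 87.7 in JVM2 and at 69.4, 60.4, 64.7 and 60.0 in MAVER1. The combination library was the lowest of its line in each case. SPCS1 fell with both drugs against control (-0.38 ± 0.09, adjusted p = 0.0115), a call lost with scaling by library totals (-0.26, adjusted p = 0.0528).

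**Figure D3:**
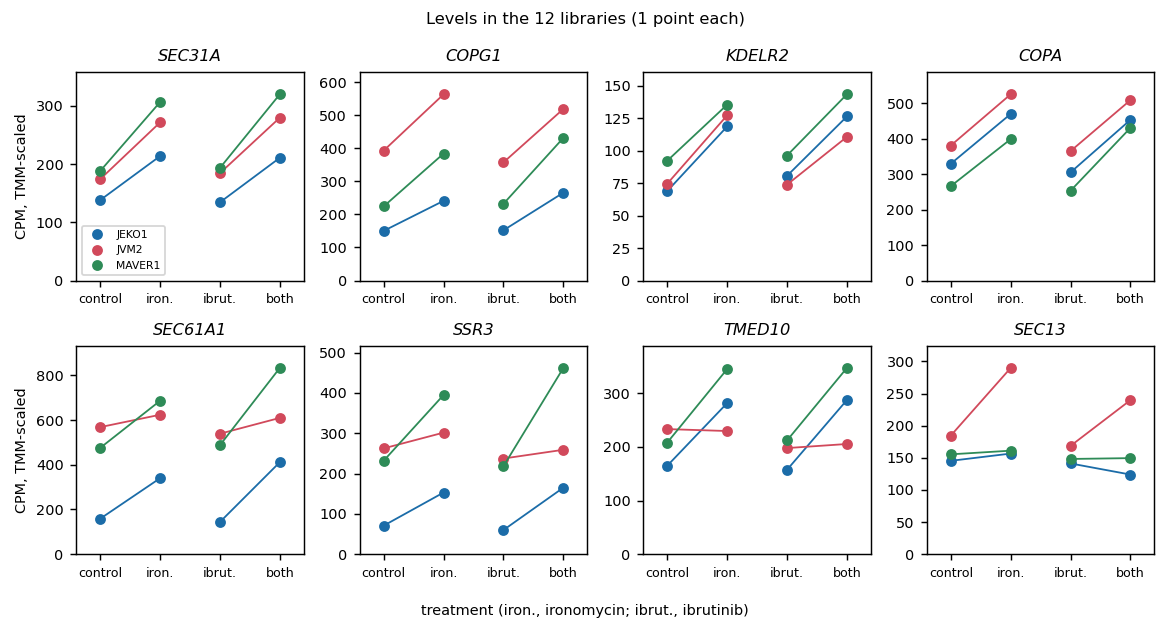
CPM of 8 members in the 12 libraries, 1 point per library, against treatment; lines join the libraries of a cell line that differ only in ironomycin. SEC31A, COPG1, KDELR2 and COPA rise along all 6 joins; SEC61A1, SSR3 and TMED10 are steep in JEKO1 and MAVER1 and nearly flat in JVM2; SEC13 rises in JVM2.

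The COPII coat has an inner layer of SEC23 and SEC24, which binds cargo, and an outer cage of SEC13 and SEC31, assembled at exit sites by SEC16 once PREB has loaded the GTPase SAR1. SEC31A had the lowest adjusted p of all members for ironomycin against control (0.66 ± 0.07, adjusted p = 0.00783). It stood at 138, 214, 134 and 211 CPM in JEKO1, at 174, 272, 184 and 279.7 in JVM2 and at 188, 306, 193 and 319.9 in MAVER1. Ironomycin libraries exceeded ironomycin-free libraries in every line and did not overlap with them across lines either. The 3 line effects were close, at 0.64 ± 0.08 (JEKO1), 0.62 ± 0.08 (JVM2) and 0.72 ± 0.08 (MAVER1). SEC13, its partner in the cage, behaved otherwise and stood at 145, 157, 141 and 124 CPM in JEKO1, at 185, 289.9, 169 and 239.8 in JVM2 and at 155, 161, 148 and 149.5 in MAVER1. Both JVM2 libraries with ironomycin were above all other libraries, and in JEKO1 and MAVER1 levels stayed at 124 to 161 CPM. SEC13 was called in JVM2 (0.58 ± 0.08, adjusted p = 0.00574) with -0.04 ± 0.08 in JEKO1 and 0.03 ± 0.08 in MAVER1, and was the 1 member of the 16 with a line difference whose effect was largest in JVM2 (adjusted p = 0.0129).

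The 4 SEC24 paralogs, which select different cargo, moved apart. SEC24D, the least abundant of them per kilobase in untreated JEKO1 and MAVER1, stood at 31.3, 107, 20.8 and 105 CPM in JEKO1, at 118, 171, 92.5 and 139 in JVM2 and at 47.2, 189.6, 47.1 and 233 in MAVER1. In MAVER1 and JEKO1 the libraries with ironomycin held several times the level of those without it, and in JVM2 the gap was smaller. Its effects were 2.04 ± 0.15 (JEKO1), 0.57 ± 0.14 (JVM2) and 2.16 ± 0.15 (MAVER1), the largest of any member in MAVER1, and they differed between lines with the lowest adjusted p of the 48 (0.00211). Over all lines it rose with both drugs against control (1.46 ± 0.35, adjusted p = 0.0124) and missed the threshold for ironomycin (1.41 ± 0.34, adjusted p = 0.072).

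SEC24A stood at 31.9, 57.8, 26.7 and 44.3 CPM in JEKO1, at 68.0, 89.6, 59.9 and 81.1 in JVM2 and at 43.5, 87.4, 44.6 and 91.5 in MAVER1 and rose with both drugs against control (0.60 ± 0.14, adjusted p = 0.0132). SEC24B stood at 58.1, 49.8, 54.1 and 47.2 CPM in JEKO1, at 42.3, 43.9, 44.3 and 42.9 in JVM2 and at 31.8, 35.0, 33.9 and 38.7 in MAVER1, and no comparison called it. SEC24C stood at 272, 347, 249 and 374 CPM in JEKO1, at 342, 346, 336 and 337 in JVM2 and at 272, 287, 278 and 319 in MAVER1 and was called in JEKO1 (0.47 ± 0.08, adjusted p = 0.00163), with an adjusted p of 0.0603 for the difference between lines. Per kilobase, SEC24C remained the most abundant paralog in all 12 libraries, at 57.8% to 75.1% of the family. The SEC24D share went from 4.52% to 11.5% with ironomycin in JEKO1, while JVM2 went from 12.7% to 16.8% and MAVER1 from 7.01% to 20.8%. Reads from stretches that paralogs share could be counted for either, and how such reads were treated is not given in the sources used here.

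**Figure D4:**
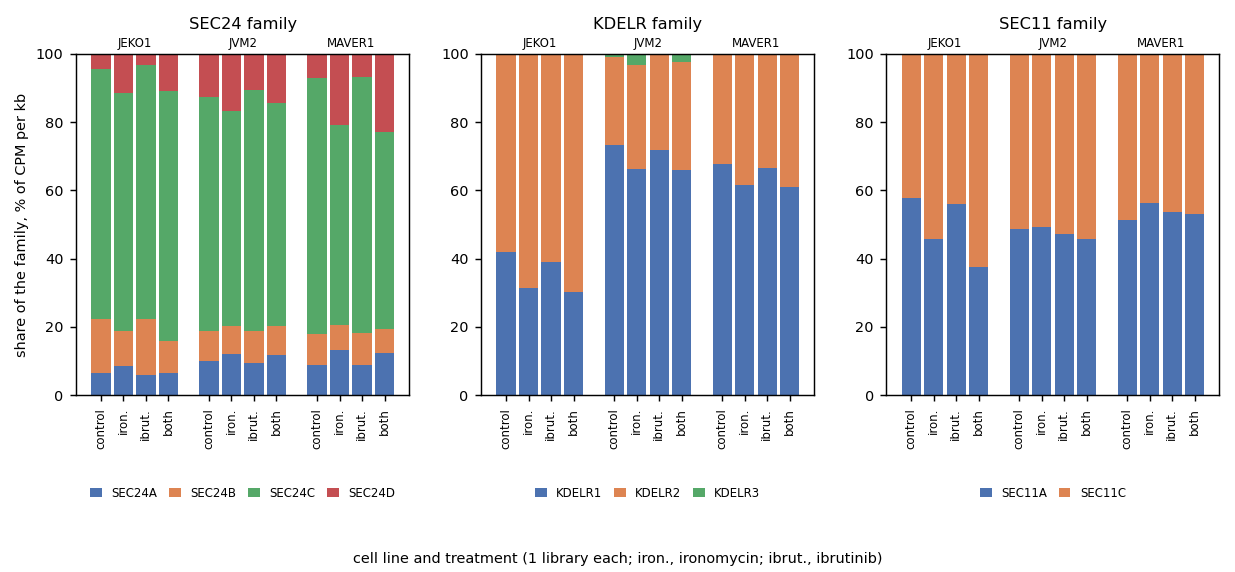
Share of each paralog in its family (% of CPM per kb of exon) in the 12 libraries for the SEC24, KDEL receptor and SEC11 families; bars are single libraries and sum to 100. The SEC24D share is larger with ironomycin in each line, and the KDELR2 share is likewise larger with ironomycin in each line.

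Among the remaining COPII genes, SEC16A rose with both drugs against control (0.50 ± 0.08, adjusted p = 0.00373) and stood at 148, 170.5, 139 and 185 CPM in JEKO1, at 171, 223, 179.9 and 243 in JVM2 and at 159.5, 221, 168 and 254 in MAVER1. All ironomycin libraries were above the ironomycin-free libraries of their line, and the effect was called in each of the 3 lines. SEC23B stood at 119, 135, 98.5 and 135 CPM in JEKO1, at 117, 118, 104 and 107 in JVM2 and at 97.7, 142, 97.7 and 164 in MAVER1, with a difference between lines (adjusted p = 0.0405) and its largest effect in MAVER1 (0.64 ± 0.10). SEC23A stood at 67.9, 80.8, 67.3 and 71.3 CPM in JEKO1, at 63.2, 86.5, 54.7 and 72.5 in JVM2 and at 31.5, 42.9, 36.1 and 45.5 in MAVER1 and was called in MAVER1 (0.39 ± 0.11, adjusted p = 0.0188), with 0.43 ± 0.11 in JVM2 (adjusted p = 0.0573) and no called difference between lines (adjusted p = 0.431). Of the SAR1 paralogs, SAR1A was called in no comparison, with levels of 76.4 to 110.4 CPM over all libraries. SAR1B stood at 18.9, 25.9, 17.0 and 25.9 CPM in JEKO1, at 39.6, 36.9, 34.7 and 32.2 in JVM2 and at 32.7, 39.2, 33.8 and 39.7 in MAVER1, and it was called in JEKO1 (0.53 ± 0.10, adjusted p = 0.00199) with a difference between lines (adjusted p = 0.0349). PREB was called in MAVER1 (0.42 ± 0.10, adjusted p = 0.00905), with an adjusted p of 0.0896 for the difference.

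Cargo receptors rose in JEKO1 and MAVER1, 5 of 7 in each, while in JVM2 their adjusted p ran from 0.0691 to 0.977. LMAN1, which with MCFD2 carries glycoproteins such as coagulation factors out of the ER, stood at 70.0, 136, 65.0 and 158 CPM in JEKO1, at 147, 199, 123 and 174 in JVM2 and at 156, 278, 172 and 349 in MAVER1. Each line's libraries with ironomycin exceeded those without it. LMAN1 rose with both drugs against control (0.87 ± 0.16, adjusted p = 0.00521). Its cofactor MCFD2 was called in MAVER1 (0.37 ± 0.10, adjusted p = 0.0198), and the difference between lines was not called (adjusted p = 0.197). LMAN2, a lectin of the same family, was called in no comparison, with 110.0 to 144 CPM in JEKO1 and 207 to 259 CPM in the other lines.

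The p24 proteins TMED2 and TMED10 sort cargo into vesicles of both coats. TMED2 stood at 91.0, 170.5, 80.5 and 179 CPM in JEKO1, at 159, 186, 148 and 164 in JVM2 and at 195, 269, 191 and 284 in MAVER1, and TMED10 at 165, 282, 157 and 288 CPM in JEKO1, at 233, 229.7, 198 and 206 in JVM2 and at 208, 345, 212 and 347 in MAVER1. For TMED10 the JVM2 libraries with ironomycin lay between or at the level of those without it. The effects on TMED10 were 0.82 ± 0.09 (JEKO1), 0.02 ± 0.09 (JVM2) and 0.72 ± 0.09 (MAVER1) and those on TMED2 were 1.03 ± 0.09 (JEKO1), 0.19 ± 0.09 (JVM2) and 0.52 ± 0.09 (MAVER1), with differences between lines for both (adjusted p = 0.00599 and 0.00651). MIA3, which helps load bulky cargo such as collagen, went from 50.3 to 76.4 CPM with ironomycin in JEKO1 and from 50.3 to 81.2 CPM in MAVER1. It was 65.4 and 65.8 CPM in JVM2, and the lines differed (adjusted p = 0.0128). SURF4, a receptor for soluble cargo, was called in JEKO1 (0.56 ± 0.09, adjusted p = 0.000963) and with both drugs against ibrutinib (0.36 ± 0.11, adjusted p = 0.0312).

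KDEL receptors catch chaperones that carry the ER retrieval signal and return them from the Golgi. KDELR2 stood at 68.9, 119, 80.6 and 126 CPM in JEKO1, at 74.6, 127, 73.8 and 111 in JVM2 and at 92.2, 135, 96.2 and 143 in MAVER1. No library with ironomycin overlapped with any library without it, over all lines. KDELR2 rose with ironomycin against control (0.70 ± 0.09, adjusted p = 0.0115) and by similar amounts in each line, at 0.72 ± 0.09 (JEKO1), 0.68 ± 0.09 (JVM2) and 0.56 ± 0.09 (MAVER1). KDELR1 stood at 28.2, 30.7, 29.2 and 31.0 CPM in JEKO1, at 119.7, 156, 108 and 131 in JVM2 and at 110.2, 123, 108 and 127 in MAVER1, and no comparison called it (ironomycin against control 0.23 ± 0.09, adjusted p = 0.174). Within the family, per kilobase, KDELR2 went from 57.9% to 68.3% with ironomycin in JEKO1, while JVM2 went from 25.8% to 30.5% and MAVER1 from 32.0% to 38.2%.

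KDELR3 was the least abundant member in every line and the only one at a few reads per library. It had 3, 13, 3 and 16 reads in JEKO1, 43, 237, 21 and 153 in JVM2, and 7, 19, 7 and 24 in MAVER1. Libraries with ironomycin had more reads than their partners in all 6 pairs, and JVM2 had the most under each treatment. After scaling, ironomycin against control gave a ratio of 4.12 in JEKO1 (95% exact conditional binomial interval 1.13 to 22.6), 5.30 in JVM2 (3.82 to 7.52) and 2.64 in MAVER1 (1.06 to 7.42). These intervals cover counting error only. Over the 3 lines the log2 fold change was 2.06 ± 0.34 (adjusted p = 0.0347).

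The COPI coat returns vesicles from the Golgi to the ER and is a complex of 7 subunits encoded by COPA, COPB1, COPB2, COPE, COPG1, COPZ1 and ARCN1. COPA, COPB1, COPB2, COPG1 and ARCN1 rose in JEKO1 and in MAVER1, and all of these except ARCN1 (0.26 ± 0.08, adjusted p = 0.0848) rose in JVM2. The adjusted p of the difference between lines ran from 0.269 to 0.965 over the 7 genes. COPG1, the gamma subunit, stood at 150.3, 241, 152 and 266 CPM in JEKO1, at 393, 564, 358 and 519 in JVM2 and at 224, 384, 232 and 432 in MAVER1. COPA, the alpha subunit, stood at 329.6, 470.1, 305 and 454 CPM in JEKO1, at 381, 526, 365 and 509 in JVM2 and at 266, 399, 253 and 431 in MAVER1. COPB2, the beta-prime subunit, stood at 112, 148, 109.9 and 132 CPM in JEKO1, at 326, 424, 305 and 386 in JVM2 and at 151, 214, 158 and 220 in MAVER1. In each line both ironomycin libraries were above both libraries without it for these 3 genes. Across lines, COPA libraries with ironomycin (399 CPM or more) lay above all those without it (381 CPM or less). For COPG1 and COPB2, whose base levels differed more between lines, libraries with and without ironomycin overlapped across lines.

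Ironomycin raised COPG1 by 0.66 ± 0.10 (adjusted p = 0.0245), COPA by 0.52 ± 0.08 (adjusted p = 0.0282) and COPB2 by 0.43 ± 0.08 (adjusted p = 0.0494) against control. COPB1, the beta subunit, stood at 93.2, 115, 91.9 and 113 CPM in JEKO1, at 133, 173, 133 and 160.5 in JVM2 and at 94.2, 133, 99.5 and 136 in MAVER1 and rose with both drugs against control (0.36 ± 0.08, adjusted p = 0.00802). ARCN1, the delta subunit, rose in the same comparison (0.29 ± 0.08, adjusted p = 0.0239). The epsilon and zeta subunits did not follow at a comparable size. COPE stood at 59.0, 61.0, 63.2 and 64.8 CPM in JEKO1, at 102, 112, 96.0 and 99.9 in JVM2 and at 129, 134, 122 and 133 in MAVER1, with 0.08 ± 0.08 for ironomycin against control (adjusted p = 0.594), and COPZ1 had 0.16 ± 0.08 (adjusted p = 0.246).

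Promoter sequences were examined for the letters that XBP1 and ATF6 are known to bind. RefSeq promoters of build GRCh38.p14, from 250 bases before to 50 after the start, were listed for 44 of the 48 genes, and not for KDELR2, SEC24D, SPCS1 and SRPRA. On either strand, 25 of the 44 members (56.8%) held the core GACGTG in any listed promoter. Of the 12095 tested genes with a listed promoter 12.7% did. Counted by promoter, the core was in 30 of 59 member promoters (50.8%) and in 7.81% of all 35116. All 7 COPI genes had it, as did 8 of the 8 members with a listed promoter that were called higher in all 3 lines, and 7 of the 15 that differed between lines. Of the 20 members raised by both drugs with a listed promoter 16 had the core, and of the other 24 members 9 had it. Among all 1604 genes raised by both drugs with a listed promoter, 261 (16.3%) had it, near the 12.7% of tested genes. For the genes called in all 3 lines and those that differed between lines, the share over all genes was not computed. COPE and COPZ1, which no comparison called, carry it too. The letters CCACG, which overlap the core in the sequence CCACGTC, were in 84.1% of members and 55.7% of tested genes. A longer form chosen after the data were seen, TGACGTGG, was in 9 of 44 members (20.5%) and 1.18% of tested genes. The full ER stress response element, CCAAT and CCACG 9 bases apart, was in 0 of 44 members and 0.141% of tested genes, and the ATF4-CHOP composite TGATGNAAT in 1 member, SRPRB, and 0.719% of tested genes. Such matches describe the letters only.

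The windows from 100 bases before to 30 after the start are shown for 6 COPI and TRAP genes, to set subunits that rose beside COPE and COPZ1, which were not called. Each is written 5′ to 3′ on the strand of the gene, with the core in capitals (GACGTG, or CACGTC where it lies on the opposite strand). COPA lies at chr1:160343221-160343350, minus strand, COPG1 at chr3:129249506-129249635, plus strand, COPB1 at chr11:14499782-14499911, minus strand, SSR1 at chr6:7313170-7313299, minus strand, COPE at chr19:18919358-18919487, minus strand, and COPZ1 at chr12:54325031-54325160, plus strand.
COPA: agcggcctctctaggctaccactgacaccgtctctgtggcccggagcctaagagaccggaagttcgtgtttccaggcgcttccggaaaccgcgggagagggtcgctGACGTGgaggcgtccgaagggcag
COPG1: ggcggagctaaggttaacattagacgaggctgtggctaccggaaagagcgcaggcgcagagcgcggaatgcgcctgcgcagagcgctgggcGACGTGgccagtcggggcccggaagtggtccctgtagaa
COPB1: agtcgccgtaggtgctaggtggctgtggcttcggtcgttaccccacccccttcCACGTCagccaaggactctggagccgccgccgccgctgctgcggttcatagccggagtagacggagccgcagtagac
SSR1: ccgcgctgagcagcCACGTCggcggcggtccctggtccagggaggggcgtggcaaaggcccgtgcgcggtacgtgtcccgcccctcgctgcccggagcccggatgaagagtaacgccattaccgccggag
COPE: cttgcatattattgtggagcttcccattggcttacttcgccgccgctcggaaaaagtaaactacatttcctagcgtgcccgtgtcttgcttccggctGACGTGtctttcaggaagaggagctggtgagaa
COPZ1: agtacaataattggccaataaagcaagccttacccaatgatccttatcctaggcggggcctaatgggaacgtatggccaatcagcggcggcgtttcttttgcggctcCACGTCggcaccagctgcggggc

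Ibrutinib alone changed none of the 48 genes by edgeR's test (0% of all genes were called), with 1 unadjusted p under 0.05 (3.64% of all genes), for SRPRA (-0.20 ± 0.09). DESeq2 called 0 members, and 9 of all 15577 genes. The median log2 fold change of the members was -0.06. As 1 library per line, 10 of 48 members were higher with ibrutinib than in the control in JEKO1, 6 in JVM2 and 28 in MAVER1, at doses that differed. Of all genes 50.2%, 46.8% and 46.4% were higher in these lines. Adding ibrutinib to ironomycin called 0 members by edgeR (0% of all genes), with 1 unadjusted p under 0.05 (10.5% of all genes), for SPCS1 (-0.24 ± 0.09). By DESeq2 it called 0 members, and 50 of all 19716 genes. A test of whether the combination departed from the summed separate changes called 0 members by either tool (0% of all genes), with 0 unadjusted p under 0.05 (1.97% of all genes). In MAVER1 41 of 48 members were higher with both drugs than with ironomycin alone, with a median log2 ratio of 0.12. In JVM2 5 were, with a median of -0.14, and in JEKO1 20 were, with a median of -0.02. Of all genes 47.8% were higher in MAVER1, 46.4% in JVM2 and 50.3% in JEKO1. These ratios compare 1 library with 1 library and have no test.

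Of 64 further pathway genes 61 were tested, and ironomycin raised 3 and lowered 0, where 0.412% of all genes rose and 0.171% fell. They were GOLGA2, a Golgi tether (0.90 ± 0.16, adjusted p = 0.0432), the GTPase gene ARF4 (0.63 ± 0.09, adjusted p = 0.0228) and ARFGAP1, an activator of ARF GTP hydrolysis (0.45 ± 0.08, adjusted p = 0.0492). Both drugs raised 16 and lowered 6 of the 61, where 14.2% of all genes rose and 14% fell. Among these, SEC31B, a paralog of SEC31A, rose by 1.04 ± 0.14 (adjusted p = 0.00253), TMED7, a p24 protein, by 0.57 ± 0.11 (adjusted p = 0.00684), and STX5, the SNARE of the early Golgi, by 0.72 ± 0.13 (adjusted p = 0.00434). HSPA13, an ER-associated chaperone of the HSP70 family, rose by 1.21 ± 0.28 (adjusted p = 0.0105), and BCAP31, an ER membrane chaperone, fell (-0.64 ± 0.11, adjusted p = 0.00452). The median log2 fold change of the 61 with ironomycin was 0.15, between that of the members (0.35) and that of all genes (0.03).

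Transcription factors of secretory genes split by line in several patterns. XBP1, which drives secretory expansion in plasma cells, stood at 36.8, 102, 41.8 and 125 CPM in JEKO1, at 289, 256, 275 and 239 in JVM2 and at 441, 501, 467 and 539.6 in MAVER1, counted over spliced and unspliced forms together. JEKO1 levels with ironomycin were far above those without it, and the lines differed (adjusted p = 0.000278), with effects of 1.53 ± 0.10 (JEKO1), -0.19 ± 0.10 (JVM2) and 0.20 ± 0.10 (MAVER1). BHLHA15 (MIST1), a factor of secretory cells, stood at 4.60, 21.6, 5.81 and 36.3 CPM in JEKO1, at 5.74, 3.16, 5.26 and 4.20 in JVM2 and at 25.0, 37.1, 28.6 and 69.7 in MAVER1. It rose in JEKO1 and MAVER1, had -0.61 ± 0.15 in JVM2 (adjusted p = 0.0607), and differed between lines (adjusted p = 0.000131). CREB3L2, a membrane-bound factor with COPII targets, had effects of 1.39 ± 0.13 (JEKO1), -0.19 ± 0.13 (JVM2) and 1.03 ± 0.13 (MAVER1) (difference between lines, adjusted p = 0.00174). CREB3, a factor of the same family linked to Golgi stress, stood at 37.0, 54.4, 36.5 and 51.4 CPM in JEKO1, at 40.3, 68.2, 36.1 and 58.9 in JVM2 and at 36.1, 38.5, 35.4 and 40.6 in MAVER1. It was called in JVM2 (0.74 ± 0.09, adjusted p = 0.00312) and JEKO1 (0.52 ± 0.09, adjusted p = 0.00139) and not in MAVER1 (0.15 ± 0.09, adjusted p = 0.245). ATF6 was called in JEKO1 (0.28 ± 0.08, adjusted p = 0.0196), its homolog ATF6B in JEKO1 and MAVER1 (0.36 ± 0.08 and 0.44 ± 0.08), and CREB3L4 in the same 2 lines (0.44 ± 0.12 and 0.45 ± 0.12). For ATF6, ATF6B and CREB3L4 the test of the difference between lines missed the threshold.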

How the data were processed

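Polyadenylated RNA of 12 cultures was sequenced in paired-end mode. The table the authors deposited gives raw read counts for each Ensembl gene. STAR, DESeq2 and the build GRCh37 are named in the submitters' processing notes, while the counting tool, its strand setting and the annotation are not given in the sources used here. Genes were named through a table of Ensembl identifiers, and no coordinates are given for counts because the annotation used for exon lengths is of another build. No column was left unused (0).

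The quasi-likelihood F-test of edgeR 4.0.16 (R 4.3.3) was fitted to all 12 libraries, after TMM scaling and filterByExpr with a minimum count of 10. Terms were the treatment and the line, and p-values were adjusted after Benjamini-Hochberg over 18674 genes. The SE is the log2 fold change divided by the square root of F. The ironomycin effect in each line came from a fit with 1 coefficient per line plus ibrutinib and its interaction with ironomycin, averaged over lines, and the difference between lines from 2 coefficients of that fit. Libraries of a line come from the same cell line, so the line was the block: deviations from treatment means correlated at 0.926 to 0.976 within lines (18 pairs) and at -0.705 to -0.127 between lines (48 pairs). With 1 library per line and treatment, p-values of the treatment comparisons rest on how much the treatment changes varied between lines. The level of each line is removed by its term. The p-values of the effects within lines and of their difference rest on the spread between the pairs without and with ibrutinib. Log2 ratios of 2 libraries used a prior count of 2 and have no test. DESeq2 1.42.0 was an alternative, beside other scalings, filters, thresholds and fits.

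The members and lists were chosen with earlier results of these data known. Members called in a treatment comparison over all lines (up to 10 by adjusted p), the 10 with the lowest adjusted p for the difference between lines, and their paralogs are given in full, the others by ranges, counts or single values. Of the other pathway lists the 2 genes with the lowest adjusted p for each list are named, and regulators whose mean reached 1 log2 CPM. Library totals ran from 35448523 to 38630809 reads. Tables used pandas 2.3.3 and plots matplotlib 3.10.9. From the list of B cell markers 1 gene is not reported here.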

Additional observations from a re-analysis of the deposited data

Results flagged for a closer look

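The ironomycin effect differed between JEKO1, JVM2 and MAVER1 for 16 of the 48 genes by the test of the difference itself (edgeR, 2 coefficients, adjusted p under 0.05 over all genes). In the translocon and TRAP complex these were SEC61A1 (adjusted p = 0.00232), SEC61B (0.021), SSR1 (0.00507), SSR2 (0.00887), SSR3 (0.00334) and SSR4 (0.0123). In signal peptidase they were SPCS2 (0.0113), SPCS3 (0.00752) and SEC11C (0.00924). Among COPII genes they were SEC24D (0.00211), SEC13 (0.0129), SAR1B (0.0349) and SEC23B (0.0405), and among cargo receptors TMED10 (0.00599), TMED2 (0.00651) and MIA3 (0.0128). All but SEC13 had their lowest effect in JVM2, as did 28 of all 48 members. The share over all genes was not computed, so these counts have no background. Serum and cell density were lower for JVM2 and the ironomycin dose was lower for JEKO1, so the line cannot be told apart from its culture and dose.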

How the results depend on the processing

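The count of members called for ironomycin against control moved from 7 to 11 with library totals, 15 with DESeq2, 0 with no replicate block (the cell line term left out), 0 with only the libraries compared and 1 with a log2 fold change of at least 1, and ran from 0 to 21 with a line left out. For both drugs against control, 25 became 0 with no replicate block, 0 with only the libraries compared and 2 with the fold threshold, and 0 to 27 with a line left out. For both drugs against ibrutinib, 31 became 0, 6 and 2 under the same settings, and 0 to 29 with a line left out. Without the block the spread between lines enters the error, and a fit on only the libraries compared has fewer samples. Without the block, 0 of all 18674 genes were called in each of these comparisons. With only the libraries compared, 2 of all 15969 genes were called for ironomycin against control. For both drugs 5 of 16136 were called against control and 306 of 16149 against ibrutinib. Calls over all genes with a line left out ran from 1 to 1636 for ironomycin against control. They ran from 22 to 6103 for both drugs against control and from 1 to 5192 against ibrutinib. The fold threshold left 8 calls in JEKO1, 1 in JVM2 and 3 in MAVER1, all of them rises. Of all 18674 genes it left 1058 higher and 314 lower in JEKO1. In JVM2 it left 83 and 50, and in MAVER1 811 and 375. The JVM2 count of 10 was 18 with library totals, 17 with DESeq2 and 4 to 12 with another line left out, and the difference between lines 3 to 15 with a line left out. With library totals the member median became 0.62 in JEKO1 and 0.23 in JVM2, since the median of all genes moved up too, from 0.03 to 0.17 in JEKO1 and from 0.00 to 0.06 in JVM2. The member median less that of all genes was 0.44 and 0.45 in JEKO1 under the 2 scalings. Over all genes library totals gave 3934 higher and 1563 lower calls for both drugs against control, in place of 2655 and 2613, 3110 and 1268 against ibrutinib in place of 2212 and 2147, 182 and 29 for ironomycin in place of 77 and 32, 4626 and 1790 in JEKO1 in place of 3179 and 3032, and 518 and 153 in JVM2 in place of 358 and 252. DESeq2 gave 652 higher and 1008 lower for ironomycin, 1954 and 2912 in JEKO1, and 377 and 585 in JVM2. The median of all genes moved with library totals from 0.05 to 0.18 for both drugs against control and from 0.05 to 0.15 against ibrutinib, while the member median less that of all genes stayed at 0.24 and 0.34. Of 312 recomputed values of named members 200 kept their side of the threshold and 112 lost their call. The fold changes among them changed direction in 0 cases. The values for the difference between lines were adjusted p-values, which have no direction. Named members were picked from those called in the main fit, so a call could be lost but not gained. With 3 to 237 reads per library, counting error limits KDELR3 most. Beyond what the settings change by construction, the cause was not tested.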

Other observations

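ARFGAP3, an activator of GTP hydrolysis by ARF proteins on COPI vesicles and no member of the 48, went from 13.5 to 30.6 CPM with ironomycin in JEKO1, while JVM2 went from 47.3 to 63.0 CPM and MAVER1 from 41.2 to 118.7 CPM. With both drugs it stood at 36.8, 63.4 and 151.5 CPM in the same lines. Its ironomycin effect was called in each line by edgeR, at 1.41 ± 0.10 SE (adjusted p = 1.61e-05) in JEKO1, 0.49 ± 0.09 (adjusted p = 0.024) in JVM2 and 1.72 ± 0.09 (adjusted p = 2.86e-06) in MAVER1, and it differed between lines (adjusted p = 0.00125). YIPF5, a membrane protein of the early secretory route, rose by 0.38 ± 0.09 in JEKO1 (adjusted p = 0.00713), 0.43 ± 0.09 in JVM2 (adjusted p = 0.0277) and 0.36 ± 0.09 in MAVER1 (adjusted p = 0.00823), with an adjusted p of 0.908 for a difference between lines. These 2 genes were singled out after their values were seen.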
